A study of Homo sapiens with 12 samples.

Results

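The AP-1 and immediate early factors measured here were the genes FOS, FOSL1, FOSL2, JUN, JUNB, JUND, EGR1, ATF3, IER2 and IER3, in Ls174T human colorectal carcinoma cells in which Wnt signalling was blocked by induction of 1 of 2 constructs. Members were every probe set of an Affymetrix U133 Plus 2.0 array whose gene symbol in the array annotation was exactly 1 of these 10 names. This gave 24 of 54675 probe sets: 5 for FOSL2, 4 each for JUN and JUND, 3 each for EGR1 and ATF3, and 1 each for FOS, FOSL1, JUNB, IER2 and IER3. All 10 genes were among the 12386 genes bright enough to be tested, by their mean over all 12 arrays, as were 22 of the 24 probe sets.

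The study asked which genes of these cells depend on the Wnt pathway. In Ls174T-pTER-β-catenin cells, doxycycline induces an shRNA (short hairpin RNA) that depletes the β-catenin transcript, and 3 arrays each came from cells induced for 72 h and from uninduced cells. The Ls174T-L8 line carries a dominant-negative Tcf4 transgene, which occupies Tcf4 sites without passing on the β-catenin signal. Its arrays came from 3 samples induced with doxycycline for 24 h and 3 uninduced samples. Uninduced samples are listed at the time of their line, 72 h for the shRNA line and 24 h for Ls174T-L8. Fetal calf serum was present in all cultures, and uninduced cells carried the inducible construct too. Each line is 1 derivative of Ls174T. Nothing in the labels states that replicates were separate cultures, and p-values therefore measure only the spread between these samples, which may be technical. No array of cells given doxycycline without a construct was analysed here, and the construct and the time after induction differ together between the lines and cannot be told apart.

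Immediate early genes are transcribed within minutes of a growth factor signal, without new protein synthesis, and most of their RNAs are short-lived. The kinase ERK acts at their promoters through ternary complex factors and the serum response factor SRF, which binds a sequence called the CArG box. AP-1 is a dimer of leucine zipper proteins: the FOS family (FOS, FOSL1, FOSL2) must pair with a JUN family member (JUN, JUNB, JUND), while JUN proteins can also pair with each other, and ATF3 pairs with JUN proteins and with itself. EGR1 is a zinc finger factor, and IER2 and IER3 are small proteins whose genes respond to the same signals. In colorectal cancer cells JUN and FOSL1 have been described as targets of β-catenin and TCF.

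Of the 10 genes 4 rose in both lines, against 8.40% of all genes tested. With dominant-negative Tcf4 for 24 h, 8 of the 10 rose, namely FOS, FOSL1, FOSL2, JUNB, EGR1, ATF3, IER2 and IER3, and none fell. With the β-catenin shRNA for 72 h, 5 rose, namely FOS, FOSL2, JUNB, JUND and EGR1, and IER3 fell. FOS rose 2.57-fold with the shRNA and 4.21-fold under dominant-negative Tcf4, and IER3, a regulator of cell survival, went in opposite directions in the lines. JUN passed in neither. The test throughout was limma on log2 signals with p-values adjusted over all genes tested, and a gene passed at an adjusted p under 0.05. Across all genes tested, 16.6% rose and 17.4% fell with the shRNA, and 16.0% rose and 20.0% fell with dominant-negative Tcf4. The median log2 change of the 10 genes was 0.40 with the shRNA, against 0.02 over all genes tested, and 0.87 with dominant-negative Tcf4, against -0.05. The 10 genes, and the gene lists below, were chosen with earlier results of these data known. Values over all genes tested are therefore given for scale and are not a test of a group. The 4 genes that rose in both lines were FOS, FOSL2, JUNB and EGR1. Not all of these calls were stable: of 23 alternatives, the EGR1 call with the shRNA was lost under 11 (adjusted p from 0.0531 to 0.228), the FOSL2 call with dominant-negative Tcf4 under 6 (0.053 to 0.111) and the JUNB call with the shRNA under 4 (0.0669 to 0.122).

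The constructs were read first. With the shRNA the brightest CTNNB1 probe set, for β-catenin, had a geometric mean signal of 155.2 in induced cells and 3781 in uninduced cells, and 1 TCF7L2 probe set, for Tcf4, had 1221 in induced and 105.6 in uninduced dominant-negative Tcf4 cells. A second TCF7L2 probe set was higher on induction in both lines, with 1208 against 724.4 for the shRNA and 1139 against 692.1 for dominant-negative Tcf4. ASCL2, a stem cell factor and Wnt target, fell to 214.5 with the shRNA, against 1806 uninduced, and to 89.0 with dominant-negative Tcf4, against 1250 uninduced. All 12 listed colorectal epithelial markers, among them EPCAM, KRT8 and CDX2, were above the filter on dim genes. Their summed signal was 38340 to 44390 in shRNA-induced and 18930 to 21450 in shRNA-uninduced arrays, and 35210 to 39580 in dominant-negative Tcf4 induced and 23720 to 26450 in uninduced arrays. With the shRNA 8 of the 12 passed upward, GPA33 passed downward and 3, EPCAM and CDX2 among them, did not pass. With dominant-negative Tcf4 7 passed upward and 5 did not pass, again with EPCAM and CDX2 among them. Bright markers weigh most in these sums. LGALS4 had 9587 induced against 1821 uninduced with the shRNA, and 5293 against 1082 with dominant-negative Tcf4. Of 9 fibroblast markers 6 were above the filter, with sums of 398.5 to 462.5 and 266.8 to 300.9 in induced and uninduced shRNA cells, and 245.0 to 271.2 and 179.9 to 192.1 in induced and uninduced dominant-negative Tcf4 cells. Of 7 leukocyte markers 4 were above it and PTPRC, CD3E and CD14 below it, with sums of 88.3 to 94.7 and 126.5 to 159.6 in induced and uninduced shRNA cells, and 83.8 to 94.9 and 67.1 to 81.3 in induced and uninduced dominant-negative Tcf4 cells. Of 5 endothelial markers only PECAM1 was above it, and the sums lay between 28.6 and 68.9 over all 12 arrays. Over all genes 12386 of 19775 were above the filter, and the counts of fibroblast and leukocyte markers are near that share. ACTA2 was the brightest fibroblast marker in shRNA cells, at 263.9 induced against 139.3 uninduced. In dominant-negative Tcf4 cells LUM had 99.1 induced against 21.8 uninduced. The ratio of 3′ to 5′ ACTB control signal, a sign of RNA integrity, was 1.13 to 1.16 in induced and 1.25 to 1.35 in uninduced dominant-negative Tcf4 arrays, without overlap, and 1.29 to 1.34 and 1.32 to 1.39 in induced and uninduced shRNA arrays. The part of these differences in the results was not tested, and in bulk RNA fewer cells of a type and less RNA per cell cannot be told apart.

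**Figure D1:**
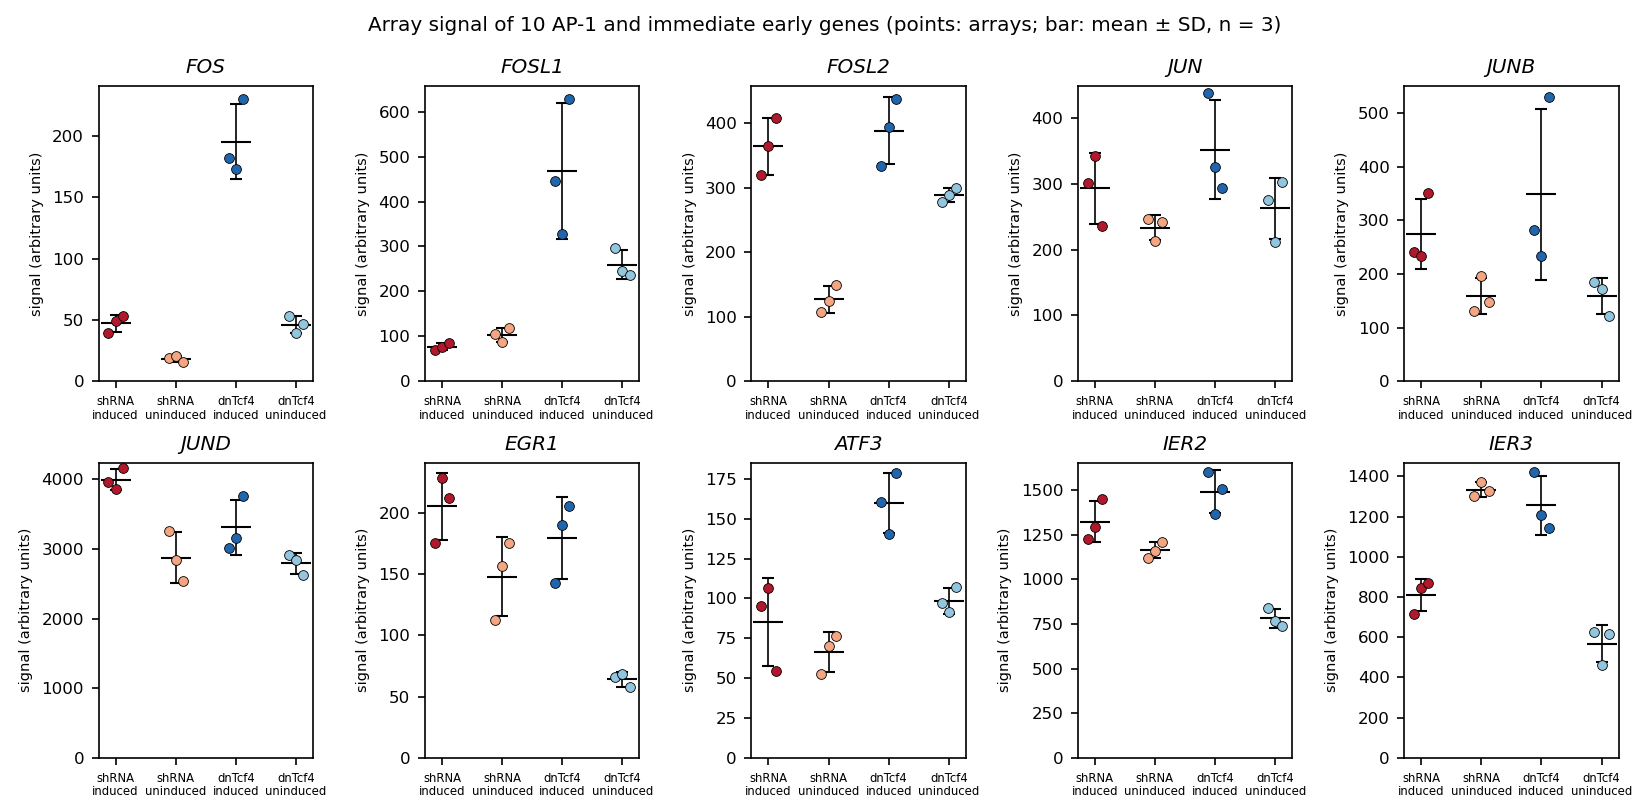
Array signal (arbitrary units, linear axis from 0) of the brightest probe set of each gene. Points are arrays, and the bars give the mean and SD of the 3 arrays of a group. FOS is highest in the 3 dominant-negative Tcf4 induced arrays, at 173.1 to 230.2, and IER3 is lower in induced than in uninduced shRNA cells but higher in induced than in uninduced dominant-negative Tcf4 cells.

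Within the FOS family, FOS and FOSL2 rose in both lines while FOSL1 rose with dominant-negative Tcf4. FOS, the founding member, is the classical early responder to serum. Its only probe set had signals of 39.7, 49.1 and 53.2 in shRNA-induced cells, against 18.7, 20.9 and 15.6 in shRNA-uninduced cells. In dominant-negative Tcf4 cells the signals were 182.5, 173.1 and 230.2 induced, against 53.1, 39.3 and 46.7 uninduced. Induced values lay above uninduced ones in both lines, and the 3 induced shRNA values overlapped those of uninduced dominant-negative Tcf4 cells. The log2 change was 1.36 ± 0.20 (SE, adjusted p = 6.86e-05) with the shRNA and 2.07 ± 0.20 (adjusted p = 9.37e-07) with dominant-negative Tcf4. The difference between these changes, -0.71 ± 0.29, did not pass (adjusted p = 0.104). The RefSeq promoter window of FOS is shown because FOS had the largest change of the 10 genes with dominant-negative Tcf4. It runs from 250 bases before to 50 after the start of transcription (chr14:75278578-75278877, GRCh38.p14, plus strand), and capitals mark the 1 match to a half-site of the cAMP response element (CRE; TGACG on either strand), which starts 64 bases before the start. None of the other motifs searched was in this window, and sequence further upstream was not searched.
FOS promoter: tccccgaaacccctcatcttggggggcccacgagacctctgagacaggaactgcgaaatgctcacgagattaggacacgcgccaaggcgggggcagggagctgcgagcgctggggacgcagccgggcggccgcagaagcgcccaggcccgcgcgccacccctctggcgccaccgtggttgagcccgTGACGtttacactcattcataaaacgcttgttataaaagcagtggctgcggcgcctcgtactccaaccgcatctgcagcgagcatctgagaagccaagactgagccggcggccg

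FOSL2 encodes Fra-2, a FOS family member with slower kinetics. Its brightest probe set had signals of 319.7, 364.5 and 408.0 in shRNA-induced and 107.0, 125.2 and 149.5 in shRNA-uninduced cells, a log2 change of 1.52 ± 0.14 (adjusted p = 3.25e-07), the largest of the 10 genes in this line. With dominant-negative Tcf4 the values were 333.6, 394.1 and 437.7 induced, against 277.7, 289.4 and 300.0 uninduced. These did not overlap either, but the change was smaller, 0.42 ± 0.14 (adjusted p = 0.0259). That call was lost without dominant-negative Tcf4 induced replicate 2 (0.40, adjusted p = 0.0658) or 3 (0.33, adjusted p = 0.111) and without uninduced replicate 1 (0.39, adjusted p = 0.0814) or 2 (0.42, adjusted p = 0.063). The changes differed between the lines by 1.10 ± 0.20 (adjusted p = 9.75e-04), and with the mean over the FOSL2 probe sets by 0.58 (adjusted p = 0.107). Before induction FOSL2 was higher in the dominant-negative Tcf4 line, at a geometric mean of 288.9 against 126.1 in the shRNA line (log2 difference 1.20 ± 0.14, adjusted p = 4.32e-06). After induction the means were 386.1 in dominant-negative Tcf4 cells and 362.3 in shRNA cells, and their difference of 0.09 ± 0.14 did not pass (adjusted p = 0.619). The FOSL2 promoter window (chr2:28392608-28392907, plus strand) is shown because it was the only one of the members' windows with a match to the AP-1 site TGANTCA. Capitals mark that match, 5 bases into the transcript, and 2 CRE half-sites.
FOSL2 promoter: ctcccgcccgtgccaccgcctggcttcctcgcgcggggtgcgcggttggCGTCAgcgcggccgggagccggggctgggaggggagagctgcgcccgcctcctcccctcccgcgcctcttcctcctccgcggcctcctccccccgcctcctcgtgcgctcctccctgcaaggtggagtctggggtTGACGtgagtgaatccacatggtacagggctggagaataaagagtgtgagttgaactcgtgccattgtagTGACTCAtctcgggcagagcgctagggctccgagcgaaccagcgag

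FOSL1 encodes Fra-1, the FOS family member linked to invasive carcinoma cells. Signals were 70.6, 76.5 and 84.7 in shRNA-induced cells, against 104.6, 88.3 and 118.7 in shRNA-uninduced cells. Those of dominant-negative Tcf4 cells were 445.8, 327.7 and 628.9 induced and 295.7, 245.7 and 237.1 uninduced. The induced values thus lay below the uninduced ones with the shRNA and above them with dominant-negative Tcf4. With the shRNA the log2 change of -0.42 ± 0.19 did not pass (adjusted p = 0.103), except without dominant-negative Tcf4 induced replicate 3 (-0.42, adjusted p = 0.0441). With dominant-negative Tcf4 the change was 0.805 ± 0.19 (adjusted p = 0.0033), and 0.57 without induced replicate 3, whose signal was the highest. The difference of the changes was -1.23 ± 0.27 (adjusted p = 0.00473). The lines also differed at baseline, with 258.3 in uninduced dominant-negative Tcf4 cells and 103.1 in uninduced shRNA cells (1.32 ± 0.19, adjusted p = 4.25e-05).

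In the JUN family, JUNB rose in both lines, JUND passed with the shRNA, and JUN in neither. JUNB encodes a JUN protein that often restrains JUN. Its signals were 241.5, 232.8 and 350.4 in shRNA-induced and 131.6, 196.3 and 148.4 in shRNA-uninduced cells. In dominant-negative Tcf4 cells they were 282.4, 232.9 and 529.8 induced, against 184.3, 171.8 and 121.9 uninduced. Groups did not overlap within a line, but induced replicate 3 was the highest array in both lines. The log2 change was 0.79 ± 0.26 with the shRNA (adjusted p = 0.0251) and 1.06 ± 0.26 with dominant-negative Tcf4 (adjusted p = 0.0039), and their difference did not pass (-0.27 ± 0.36, adjusted p = 0.674). The shRNA call was lost without shRNA-induced replicate 3 (0.60, adjusted p = 0.122) or uninduced replicate 1 (0.66, adjusted p = 0.0997) or 3 (0.75, adjusted p = 0.0669). Without dominant-negative Tcf4 induced replicate 3 the change in that line was 0.71 and still passed.

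JUND is the JUN gene with steady expression in many resting cells. Its brightest probe set had 3964.1, 3859.8 and 4157.5 in shRNA-induced and 3252.8, 2837.8 and 2535.4 in shRNA-uninduced cells, a log2 change of 0.48 ± 0.10 (adjusted p = 8.36e-04). Dominant-negative Tcf4 cells had 3018.5, 3156.5 and 3760.5 induced and 2913.2, 2838.6 and 2624.0 uninduced. These also did not overlap, but the change of 0.24 ± 0.10 did not pass (adjusted p = 0.0592). It did pass without shRNA-uninduced replicate 1 (adjusted p = 0.0402) or 3 (adjusted p = 0.0375), with 0.24 each, and without dominant-negative Tcf4 induced replicate 1 (0.30, adjusted p = 0.0346). Quantile normalization also made it pass (0.27, adjusted p = 0.0119). So did a filter at the 75th percentile of signal (adjusted p = 0.0456) and a fit of only the arrays compared (adjusted p = 0.0475), with 0.24 each. With the mean over all JUND probe sets in place of the brightest, the shRNA change was 0.17 (adjusted p = 0.505) and the dominant-negative Tcf4 change -0.20 (adjusted p = 0.437). The JUND window (chr19:18281573-18281872, minus strand) is shown because it held the only full CRE, TGACGTCA, among the members. Capitals mark it, 200 bases before the start, and a further half-site, and the full CRE also contains 1 half-site on each strand.
JUND promoter: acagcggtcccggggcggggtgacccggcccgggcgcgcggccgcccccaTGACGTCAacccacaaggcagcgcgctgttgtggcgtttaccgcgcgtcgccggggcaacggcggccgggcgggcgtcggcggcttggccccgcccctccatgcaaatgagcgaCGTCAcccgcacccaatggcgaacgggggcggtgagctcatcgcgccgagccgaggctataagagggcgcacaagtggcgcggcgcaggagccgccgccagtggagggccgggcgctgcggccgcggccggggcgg

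JUN encodes the partner that gives AP-1 its strongest activity. The brightest of its probe sets had 300.2, 342.4 and 235.1 in shRNA-induced cells, against 246.2, 212.5 and 241.5 in shRNA-uninduced cells, and 436.7, 324.5 and 293.5 in dominant-negative Tcf4 induced cells, against 274.7, 210.8 and 301.8 uninduced. All 4 groups overlapped with a neighbour in level. The log2 change was 0.31 ± 0.17 for the shRNA (adjusted p = 0.178), and 0.42 ± 0.17 for dominant-negative Tcf4 (adjusted p = 0.0671). The dominant-negative Tcf4 change passed without dominant-negative Tcf4 induced replicate 3 (0.54, adjusted p = 0.0332) or uninduced replicate 3 (0.53, adjusted p = 0.0435). It also passed with array quality weights (0.45, adjusted p = 0.0421). The JUN window (chr1:58783998-58784297, minus strand) is shown because JUN was the member that passed in neither line. Capitals mark TGACATCA, the AP-1-like site through which JUN is known to drive its own gene, 67 bases before the start, and 1 half-site.
JUN promoter: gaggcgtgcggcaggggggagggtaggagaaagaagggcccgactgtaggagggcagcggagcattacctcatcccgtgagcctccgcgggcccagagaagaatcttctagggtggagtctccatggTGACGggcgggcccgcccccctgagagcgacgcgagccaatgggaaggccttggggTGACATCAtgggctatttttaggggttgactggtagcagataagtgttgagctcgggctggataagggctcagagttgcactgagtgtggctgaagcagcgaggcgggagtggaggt

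EGR1, a zinc finger factor that many growth factor signals induce, rose with dominant-negative Tcf4. Its brightest probe set had 142.4, 190.5 and 206.0 in dominant-negative Tcf4 induced cells, against 66.1, 68.5 and 57.5 uninduced, a log2 change of 1.47 ± 0.18 (adjusted p = 8.73e-06). In shRNA cells it had 175.3, 228.1 and 212.4 induced and 112.7, 156.3 and 175.1 uninduced. The lowest induced value there exceeded the highest uninduced one by a small margin. The shRNA change of 0.49 ± 0.18 passed narrowly (adjusted p = 0.0456). The call was lost without shRNA-induced replicate 2 (0.41, adjusted p = 0.149) or 3 (0.46, adjusted p = 0.114) and without shRNA-uninduced replicate 1 (0.30, adjusted p = 0.228) or 2 (0.54, adjusted p = 0.0636). It was lost as well without dominant-negative Tcf4 induced replicate 2 (adjusted p = 0.0531) or uninduced replicate 1 (adjusted p = 0.0555) or 2 (adjusted p = 0.0536), at 0.49 each. The change differed between the lines by -0.99 ± 0.25 (adjusted p = 0.0127), and with the mean over the EGR1 probe sets by -0.72 (adjusted p = 0.13). Uninduced dominant-negative Tcf4 cells had a lower EGR1 signal, 63.9 against 145.6 in uninduced shRNA cells (-1.19 ± 0.18, adjusted p = 6.72e-05), and after induction the means, 177.5 in dominant-negative Tcf4 cells and 204.0 in shRNA cells, did not pass (adjusted p = 0.384). The EGR1 window (chr5:138465229-138465528, plus strand) is shown because it was the only one with CArG boxes. Capitals mark the boxes CCATATTAGG and CCATATATGG, 105 and 83 bases before the start, 2 CRE half-sites and a match to the EGR1 site GCGNGGGCG 198 bases before it.
EGR1 promoter: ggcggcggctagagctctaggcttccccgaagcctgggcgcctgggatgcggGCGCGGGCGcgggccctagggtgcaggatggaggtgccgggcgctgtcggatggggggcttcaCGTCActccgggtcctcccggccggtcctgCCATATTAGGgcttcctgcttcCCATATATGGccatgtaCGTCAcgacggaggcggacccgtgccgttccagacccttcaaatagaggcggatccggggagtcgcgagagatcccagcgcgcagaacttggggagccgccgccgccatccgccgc

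ATF3, a stress-induced factor that can repress or activate AP-1 and CRE sites, passed with dominant-negative Tcf4. Signals of its brightest probe set were 160.6, 140.3 and 178.4 induced and 96.8, 91.4 and 107.0 uninduced in that line, without overlap (log2 change 0.70 ± 0.22, adjusted p = 0.0202). Values in shRNA cells were 95.3, 106.6 and 54.3 induced and 52.4, 69.9 and 76.6 uninduced, and these overlapped (0.33 ± 0.22, adjusted p = 0.284). The dominant-negative Tcf4 call was lost without induced replicate 1 (0.69, adjusted p = 0.0502) or 3 (0.61, adjusted p = 0.0734) or uninduced replicate 1 (0.69, adjusted p = 0.0536) or 2 (0.64, adjusted p = 0.0683), and the shRNA change passed without shRNA-induced replicate 3 (0.62, adjusted p = 0.0178). Its second probe set had -0.13 ± 0.27 with dominant-negative Tcf4, which did not pass, and the mean over its probe sets had 0.02 (adjusted p = 0.963).

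IER2 rose with dominant-negative Tcf4. It encodes a nuclear protein of the early serum response. It had 1601.8, 1364.7 and 1507.3 in dominant-negative Tcf4 induced cells, against 841.6, 766.8 and 739.4 uninduced, a log2 change of 0.93 ± 0.09 (adjusted p = 7.3e-07). In shRNA cells the values were 1227.0, 1292.5 and 1449.7 induced and 1117.5, 1161.3 and 1207.7 uninduced. They did not overlap, but the change of 0.18 ± 0.09 did not pass (adjusted p = 0.129). The difference between the changes was -0.74 ± 0.13 (adjusted p = 7.15e-04). Uninduced dominant-negative Tcf4 cells had the lowest IER2 level of the 4 groups, 781.4 against 1162 in uninduced shRNA cells (-0.57 ± 0.09, adjusted p = 9.66e-05).

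IER3, also known as IEX-1, modulates apoptosis and ERK signalling. It was the only 1 of the 10 genes to pass in both lines in opposite directions. How many of all genes tested did so was not counted, and MAP2K2 and CDKN1A in the lists below did so too. In shRNA cells the IER3 signals were 718.0, 844.9 and 869.6 induced, against 1300.3, 1371.8 and 1330.1 uninduced. Those of dominant-negative Tcf4 cells were 1421.4, 1206.9 and 1141.9 induced, against 626.0, 461.9 and 617.9 uninduced. Neither pair of groups overlapped. IER3 fell by 0.72 ± 0.12 with the shRNA (adjusted p = 1.67e-04) and rose by 1.15 ± 0.12 with dominant-negative Tcf4 (adjusted p = 1.66e-06), and the difference was -1.87 ± 0.17 (adjusted p = 1.6e-06). Before induction IER3 was lower in the dominant-negative Tcf4 line, 563.2 against 1334 in the shRNA line (-1.24 ± 0.12, adjusted p = 5.29e-07). After induction it was higher there, 1251 against 808.0 (0.63 ± 0.12, adjusted p = 3.36e-04).

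**Figure D2:**
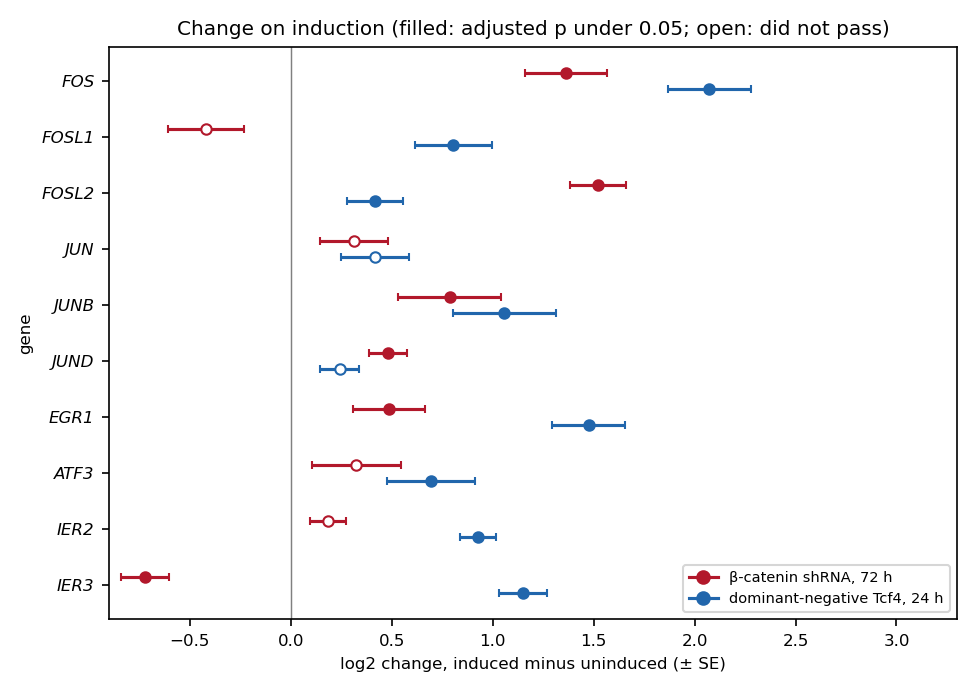
Log2 change, induced minus uninduced, with its standard error, for each gene in each line. Filled points passed at an adjusted p under 0.05. FOS, FOSL2, JUNB and EGR1 passed upward in both lines, IER3 passed on opposite sides of 0, and both points of JUN are open.

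Induced and uninduced values did not overlap for 6 genes upward and 2 downward with the shRNA, where 22.4% and 22.2% of all genes tested did not, and for 9 genes upward with dominant-negative Tcf4, where 21.1% did not. The test of the difference between the lines passed for 5 of the 10 genes. FOSL2 was the 1 with the larger change in the shRNA line (9.03% of all genes tested passed in that direction), and FOSL1, EGR1, IER2 and IER3 were the 4 with the larger change in the dominant-negative Tcf4 line (8.61%). For FOS, JUN, JUNB, JUND and ATF3 this test did not pass, which does not show equal changes.

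The uninduced lines differed in 7 of the 10 genes. FOS, FOSL1, FOSL2 and ATF3 were higher in the dominant-negative Tcf4 line, 4 genes against 16.9% of all genes tested, and EGR1, IER2 and IER3 were lower, 3 genes against 20.5%. FOS had a geometric mean of 46.0 in uninduced dominant-negative Tcf4 cells and 18.3 in uninduced shRNA cells (1.33 ± 0.20, adjusted p = 7.96e-05). The ATF3 difference (0.58 ± 0.22, adjusted p = 0.0458) was the weakest of these. It did not pass under 12 of the 23 alternatives run, at adjusted p from 0.0514 to 0.232, and among these were leaving out uninduced shRNA replicate 1 (0.42) or 2 (0.63), uninduced dominant-negative Tcf4 replicate 1 (0.60), 2 (0.64) or 3 (0.52), and induced dominant-negative Tcf4 replicate 1 or 2 (0.58 each). Between the induced lines FOS, FOSL1, ATF3 and IER3 were higher in the dominant-negative Tcf4 line, 4 genes where 21.1% of all genes tested were, and JUND was lower, 1 gene where 26.9% were. FOSL1 had 451.2 in dominant-negative Tcf4 induced and 77.1 in shRNA-induced cells, the largest of these differences (2.55 ± 0.19, adjusted p = 1.53e-08). The JUND difference of -0.28 ± 0.10 (adjusted p = 0.0245) was lost without shRNA-induced replicate 3 (-0.25, adjusted p = 0.0801) or dominant-negative Tcf4 induced replicate 1 (-0.21, adjusted p = 0.113) or 2 (-0.24, adjusted p = 0.0779), and it was -0.08 after quantile normalization (adjusted p = 0.425) and -0.12 with arrays centred on their medians (adjusted p = 0.46). With arrays centred on their medians the balance over all genes turned, to 2426 higher and 1668 lower between uninduced lines, against 2089 and 2536, and to 3189 higher and 2307 lower between induced lines, against 2612 and 3328. The comparisons between lines share their arrays with the inductions and are not independent of them.

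Probe sets of the same gene were compared within the fit of all 54613 probe sets that were not controls. Among the 24 probe sets of the members 5 passed upward and 1 downward with the shRNA, against 5.33% and 5.76% of all probe sets, and 7 upward and none downward with dominant-negative Tcf4, against 5.34% and 6.06%. Probe sets of 1 gene share their RNA and are not replicates. In this larger fit JUNB (adjusted p = 0.0574) and EGR1 (adjusted p = 0.102) did not pass with the shRNA, nor FOSL2 (adjusted p = 0.058) and ATF3 (adjusted p = 0.0511) with dominant-negative Tcf4. The 5 FOSL2 probe sets all had positive changes in both lines, 0.50 to 1.52 with the shRNA, where 3 passed, and 0.33 to 0.60 with dominant-negative Tcf4, where none passed in this fit. For EGR1 2 of 3 probe sets passed with dominant-negative Tcf4 (1.47 and 1.37), the third had 0.64, and with the shRNA none passed in this fit (0.27 to 0.58). The 4 JUN probe sets had changes from -0.39 to 0.89 with the shRNA and from 0.31 to 0.60 with dominant-negative Tcf4, none of which passed. The brightest JUN probe set ends in _x_at, a mark for probes that may also bind other transcripts. Of the JUND probe sets 3 had changes of 0.48 to 0.59 with the shRNA. Only the brightest of them passed in this fit, and the others did not (adjusted p = 0.0507 and 0.0973). The JUND probe set below the filter, at signals of 1.1 to 12.2, had -0.97 with the shRNA and -2.03 under dominant-negative Tcf4, neither of which passed. The 3 ATF3 probe sets disagreed in sign: the 2 dimmer ones had -0.33 and -0.78 with the shRNA and -0.13 and -0.50 with dominant-negative Tcf4, and none of these passed.

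**Figure D3:**
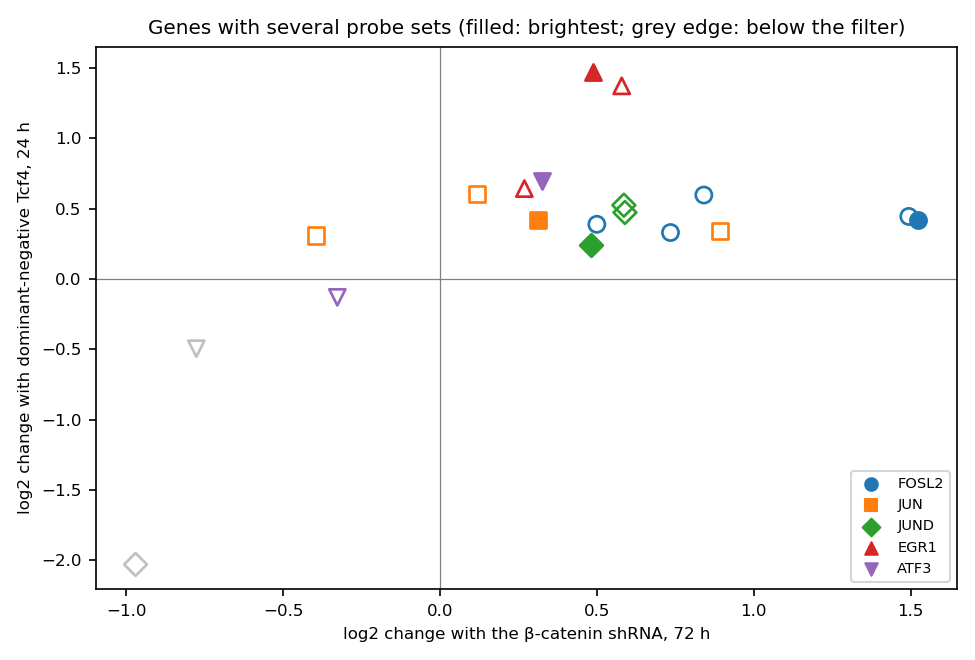
Log2 change with the β-catenin shRNA (horizontal axis) against that with dominant-negative Tcf4 (vertical axis) for each probe set of the 5 genes with several. Filled marks are the brightest probe set of a gene and grey edges mark those below the filter. FOSL2, EGR1 and 3 of 4 JUND probe sets lie above 0 on both axes, whereas ATF3 probe sets lie on both sides.

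In the 8 members with a RefSeq promoter window (9 windows, 2 of them for ATF3), 8 patterns of letters were searched on both strands. CTTTGAT or CTTTGAA, which TCF proteins bind, was in none of the 9 windows, against 2.62% and 4.43% of the 35116 promoter windows of all genes. CArG boxes were in 1.29% of all windows, the AP-1 site in 7.71%, the full CRE in 1.85%, TGACATCA, also found in 1 ATF3 window, in 2.61%, the EGR1 site in 9.43% and the CRE half-site in 24.6%. These are matches of letters in a short window only.

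Of 14 other genes of the AP-1 family listed, 11 had a probe set of 1 symbol and 8 were bright enough to be tested. Of these 8, MAFF and JDP2 passed with the shRNA and MAFF and BATF2 with dominant-negative Tcf4. MAFF, a small MAF protein, rose by 0.65 ± 0.11 with the shRNA (adjusted p = 3.15e-04) and by 1.74 ± 0.11 with dominant-negative Tcf4 (adjusted p = 1.08e-08). JDP2, a repressor that pairs with JUN, fell by 1.76 ± 0.13 with the shRNA (85.9 induced against 290.0 uninduced, adjusted p = 3.76e-08) and had 0.13 with dominant-negative Tcf4 (adjusted p = 0.509). BATF2 rose by 1.08 ± 0.38 with dominant-negative Tcf4. The median change of these genes was 0.27 with the shRNA and 0.10 under dominant-negative Tcf4. Of the 8 genes 1 rose and 1 fell with the shRNA, where 16.6% and 17.4% of all genes tested did so. With dominant-negative Tcf4 2 rose and none fell, where 16.0% and 20.0% of all genes tested did so. For 8 genes these counts are near the background.

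Of 33 other immediate early genes tested, 14 rose and 4 fell with the shRNA and 16 rose and 2 fell with dominant-negative Tcf4, with medians of 0.14 and 0.58. The shares over all genes tested were 16.6% higher and 17.4% lower with the shRNA, and 16.0% higher and 20.0% lower with dominant-negative Tcf4. Higher in both lines were 11 of the 33, against 8.40% of all genes tested, among them the Krüppel-like factors KLF2, KLF4 and KLF6 and the GTPase RHOB. KLF6 rose by 2.29 ± 0.11 with the shRNA (900 induced against 184 uninduced) and by 2.00 ± 0.11 with dominant-negative Tcf4. KLF4, a factor of differentiating epithelium, rose by 2.35 ± 0.11 with dominant-negative Tcf4, and KLF2 rose by 2.14 ± 0.18. ARC rose by 3.82 ± 0.46 there, to a signal of 28.1 against 2.00. RHOB rose by 1.76 with the shRNA and CCN2, a matricellular target of SRF and YAP, by 2.08 ± 0.70 to 27.7 against 6.56. MYC fell by 0.99 ± 0.09 in each line. NR4A1 fell by 1.85 ± 0.42 with the shRNA to a signal of 8.19 against 29.5, PHLDA1 fell by 1.17, and DUSP2, a phosphatase of ERK, fell by 0.80 with dominant-negative Tcf4. For ARC, CCN2 and NR4A1 1 of the signals compared lay under the filter of 10.2, and the size of their changes is not measured reliably.

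**Figure D4:**
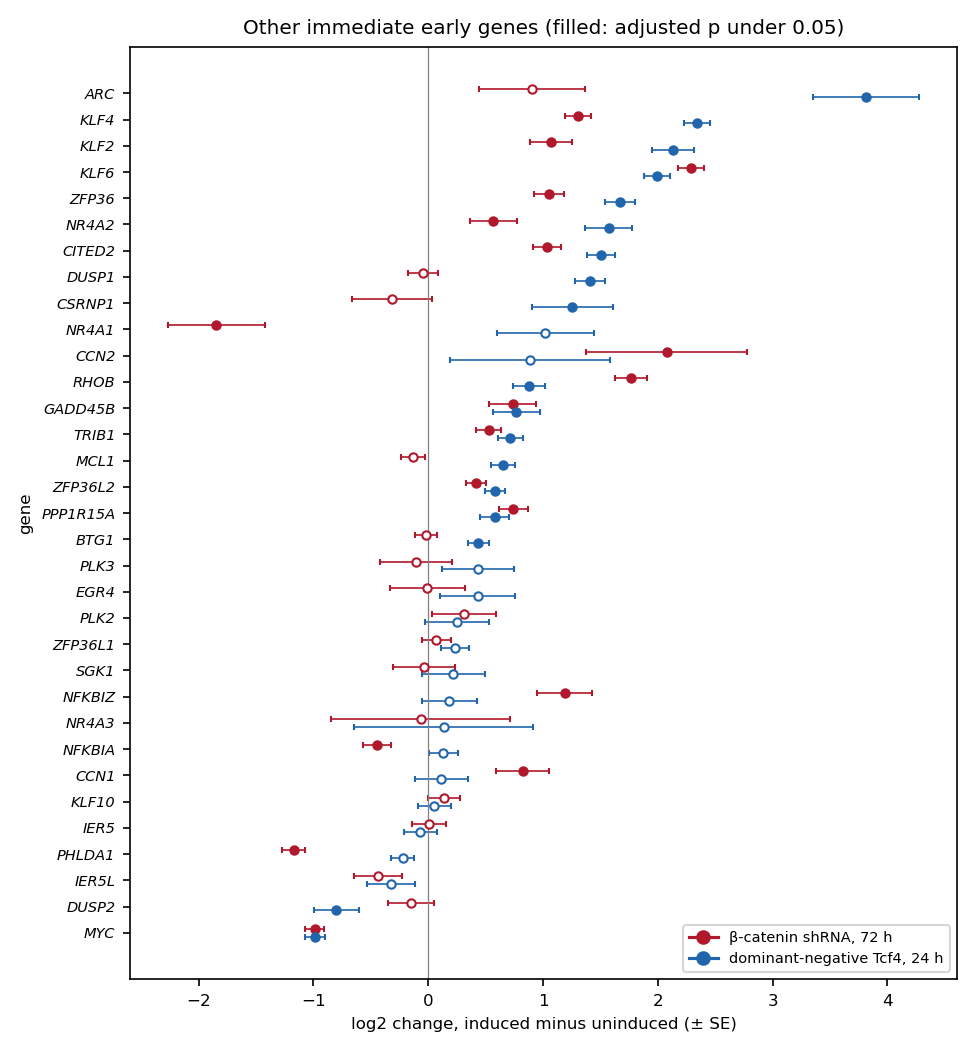
Log2 change, induced minus uninduced, with its standard error, for 33 other immediate early genes, ordered by their change with dominant-negative Tcf4. Filled points passed at an adjusted p under 0.05. KLF2, KLF4 and KLF6 lie to the right in both lines, and MYC at -0.99 in both.

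Among kinases and factors upstream, 1 of 17 rose and 4 fell with the shRNA, and 2 rose and 1 fell with dominant-negative Tcf4 (medians -0.11 and 0.08). Shares of 16.6% higher and 17.4% lower with the shRNA, and of 16.0% and 20.0% with dominant-negative Tcf4, held over all genes tested, so 4 of 17 lower and 2 of 17 higher are near the background. MAPK3, the gene of ERK1, rose by 0.67 ± 0.23 with the shRNA (adjusted p = 0.0344) and by 1.45 ± 0.23 with dominant-negative Tcf4 (adjusted p = 1.2e-04). SRF fell by 0.78 ± 0.21 with the shRNA, to 61.1 against 104.6, as did the kinases MAPK9, by 0.66, and MAP2K4, by 0.55. ELK1, a ternary complex factor, fell by 0.45 ± 0.11 with dominant-negative Tcf4. MAP2K2, the gene of the ERK kinase MEK2, passed in both lines with opposite signs and is named after its values were seen (-0.43 with the shRNA and 0.38 under dominant-negative Tcf4). Of 8 genes for the turnover of JUN and FOS proteins, 1 rose and 2 fell with the shRNA: ITCH, a ubiquitin ligase for JUN, rose by 0.57, the deacetylase SIRT1 fell by 0.50 and USP28 fell by 0.39. None of the 8 passed with dominant-negative Tcf4, where 16.0% of all genes tested rose and 20.0% fell. For 8 genes the shRNA counts are near the shares of 16.6% higher and 17.4% lower over all genes tested.

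Of 29 AP-1 target genes listed, 25 had a probe set of 1 symbol and 15 were bright enough to be tested. Of these 15, 7 rose and 2 fell with the shRNA, and 7 rose and 1 fell with dominant-negative Tcf4, with medians of 0.52 and 0.38. Over all genes tested 16.6% rose and 17.4% fell with the shRNA, and 16.0% rose and 20.0% fell with dominant-negative Tcf4. In both lines 6 of the 15 rose, against 8.40% of all genes tested, among them PLAUR, LAMB3, HBEGF and TIMP1. PLAUR, the urokinase receptor, rose by 2.78 ± 0.16 with dominant-negative Tcf4, to 612.4 against 89.5, and LAMB3, a laminin chain of the basement membrane, rose by 1.43 ± 0.15 with the shRNA and by 2.48 ± 0.15 under dominant-negative Tcf4. The growth factor HBEGF rose by 1.20 and 1.40, and TIMP1, a protease inhibitor, by 0.995 with the shRNA. CCND1 fell by 0.88 with the shRNA, and the adhesion receptor CD44 fell by 0.37 with the shRNA and by 1.54 under dominant-negative Tcf4. CCND1 and CD44 have been described as Wnt targets too, and whether this bears on their fall was not tested. Of 10 EGR1 corepressors and targets 3 rose and 1 fell with the shRNA, and 6 rose and 2 fell with dominant-negative Tcf4 (medians 0.07 and 0.45), beside the same shares over all genes tested. NAB1, a corepressor of EGR1, rose by 0.52 ± 0.17 with the shRNA and by 0.51 under dominant-negative Tcf4. TNFSF10 and GDF15 rose by 0.77 and 0.50 with the shRNA. CDKN1A, a cell cycle inhibitor, fell by 0.36 ± 0.12 with the shRNA and rose by 2.64 ± 0.12 with dominant-negative Tcf4, to 709.2 against 113.5. In that line GADD45A rose by 1.28, PTGES had 29.1 induced against 7.76 uninduced, a signal under the filter of 10.2 (1.91), and TGFB1 fell by 0.93 and TP73 by 0.77.

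The genes whose pattern over the 12 arrays was most like that of a member were found by the root mean square difference of log2 signals, each gene centred on its own mean. For FOS these were S100A2 (0.219), PLEC (0.280) and GPRC5A (0.290), which had changes of 0.96, 0.92 and 1.43 with the shRNA and 2.05, 2.00 and 1.67 with dominant-negative Tcf4. For FOSL2 they were ARRDC4 (0.155), ANXA2 (0.161) and ZBTB34 (0.222), and for EGR1 HES1 (0.180), ABCA5 (0.229) and ATP10B (0.244). IER2 was nearest to OSTF1 (0.125), MBNL1-AS1 (0.129) and RNF145 (0.146), and IER3 to DEF6 (0.267), SEMA3F (0.268) and ESAM-AS1 (0.273). FOSL1 was nearest to SECTM1 (0.271), ESYT2 (0.295) and FAT1 (0.297), JUNB to NEU1 (0.269), PPP2R5B (0.271) and RHOC (0.275), and ATF3 to SPTY2D1 (0.195), GCLM (0.206) and HYCC2 (0.223). JUND, with small changes, was nearest to P4HB (0.0932), AHCYL1 (0.101) and SYS1 (0.108).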

How the data were processed

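RNA of 12 samples was hybridised to 1 array each. The deposited table gives an intensity (signal, linear, arbitrary units) for every probe set and array, which the authors made with MAS5 and GCOS, per the submitters' processing notes. For program versions and the genome build, the sources used here give nothing. Detection calls were not used. Array medians were 12.1 to 15.3 and the highest signals 10479.0 to 16510.8. The number of arrays limits the precision.

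An array annotation named the probe sets: 41097 had 1 gene symbol, 1801 several and 11777 none. Signals below 1 (6.58% to 9.25% per array) were raised to 1 before the log2 step. Each of 19775 genes was represented by its brightest probe set, and 12386 genes passed a filter at log2 3.35 (signal 10.2, the median of all probe sets). Group means were compared with limma 3.58.1 (R 4.3.3) with a variance trend over all 12 arrays. Two-sided p-values were adjusted in each comparison for all genes tested (Benjamini-Hochberg). The same model was run on all 54613 probe sets other than controls. The steps were also run on simulated data in which few genes changed, in 1 group only. That setting differs from these data, and no result here rests on it.

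Genes named beside the members were, per list and induction, up to 3 largest increases and decreases among genes that passed (all for AP-1 subunits), the 3 nearest in pattern to each member that passed, and checks of the constructs and cell types. Of 164 listed genes 15 had no probe set of 1 symbol. The members and lists were chosen with earlier results of these data known. Promoter windows are RefSeq's on GRCh38.p14. Alternatives covered scaling, offset, filter, probe set choice, variance model, array weights, the arrays in the fit, a replicate block and each array left out.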

Additional observations from a re-analysis of the deposited data

Results flagged for a closer look

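For 5 of the 10 genes the change on induction differed between the shRNA line (72 h) and the dominant-negative Tcf4 line (24 h) in limma's test of the difference itself, shRNA minus dominant-negative Tcf4. IER3 differed by -1.87 (adjusted p = 1.6e-06), with a change of -0.72 in the shRNA line and 1.15 in the dominant-negative Tcf4 line. IER2 differed by -0.74 (adjusted p = 7.15e-04), with 0.18 and 0.93. FOSL1 differed by -1.23 (adjusted p = 0.00473), with -0.42 and 0.805. EGR1 differed by -0.99 (adjusted p = 0.0127), with 0.49 and 1.47. FOSL2 differed by 1.10 (adjusted p = 9.75e-04), with 1.52 and 0.42, and was the gene of the 5 with the larger change in the shRNA line. Construct and time of induction cannot be told apart in these differences.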

How the results depend on the processing

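Results were recomputed under 11 other settings and with each of 12 arrays left out. FOS has no value with the filter at the 75th percentile of signal, which its mean did not reach. Averaging all probe sets of a gene lowered the genes passing with dominant-negative Tcf4 to 2943, against 4455, those differing between lines to 1277, against 2185, and the members differing to 3, against 5. That average turned ATF3 to -0.26 with the shRNA, JUND to -0.20 with dominant-negative Tcf4 and JUND to 0.20 between uninduced lines. Without _x_at and _s_at probe sets ATF3 was -0.33 with the shRNA and -0.13 under dominant-negative Tcf4, and the JUN difference was 0.55. Between uninduced lines JUNB was -0.01 after quantile normalization and -0.07 with array weights, and JUND was 0.07 after quantile normalization and 0.08 with median centring. None of these values that changed sign passed the test, and the cause was not tested. Median centring moved the median of all genes to 0.0859, against -0.0272, between uninduced lines and to 0.0763, against -0.0789, between induced lines.

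With 1 array left out, 4 to 7 members passed with the shRNA, 6 to 9 with dominant-negative Tcf4, 5 in the difference, 6 to 7 between uninduced and 4 to 5 between induced lines. The genes passing were 3543 to 4337, 3739 to 4611, 1754 to 2181, 3775 to 4746 and 5432 to 6101 in the same order. Signs changed for JUN (-0.23 to 0.06) and JUNB (-0.51 to 0.08) in the difference, JUNB (-0.12 to 0.19) and JUND (-0.12 to 0.06) between uninduced lines, and JUNB (-0.07 to 0.52) between induced lines. Replicate numbers are shared by all groups, and the deviations of same-numbered arrays were only weakly correlated (-0.078 to 0.087). Within the inductions these correlations had both signs (-0.078 to 0.038). Between uninduced lines they were 0.012 to 0.048 and between induced lines 0.041 to 0.087. Only between induced lines did every array correlate best with its own number. With the replicate number as a block 6, 8, 5, 6 and 5 members and 4228, 4465, 2204, 4578 and 5949 genes passed in the order above. The ATF3 difference between uninduced lines then missed the threshold (0.58, adjusted p = 0.0631). A fit of only the arrays compared gives no value for the difference between lines. Signals near the floor limit the dimmest probe sets, 1 each of JUND and ATF3.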
